A study of Mus musculus with 2 samples.

Results

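Reln, Lrp8, Vldlr and Dab1 are the 4 genes at the head of the reelin pathway, and they were taken as the 4 rows of those symbols among the 32285 genes of each count matrix. The study used Slide-tags, in which nuclei of a frozen section take up spatial barcodes before single-nucleus RNA sequencing (snRNA-seq). The adult library came from a coronal section of the hippocampus of a male C57BL/6J mouse at 56 days of age. The embryonic library came from a sagittal section of the brain of whole frozen C57BL/6J embryos at embryonic day 14 (E14). No other genotype or treatment is given for either tissue, apart from isoflurane anaesthesia and perfusion of the adult mouse and PBS perfusion of the pregnant mouse. As 1 library represents each tissue, no value below has a replicate and no difference was tested.

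Reelin is a large secreted glycoprotein. In the embryonic cortex it is released mainly by Cajal-Retzius cells of the marginal zone, and in the adult hippocampus mainly by GABAergic interneurons near the hippocampal fissure. It binds the lipoprotein receptors Apoer2, the product of Lrp8, and Vldlr, and both pass the signal to the adaptor Dab1, which is phosphorylated by Src family kinases and acts on migration, layering and later on dendrites and synapses.

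After filtering, 1609 adult nuclei with 15346746 unique molecular identifiers (UMIs, each marking 1 captured molecule) and 9036 E14 nuclei with 58923882 UMIs remained, with medians of 6607 and 4204 UMIs per nucleus. Nuclei were put into classes from UMIs of marker genes that include none of the 4 genes, and a class name ending in "-like" rests on those markers alone. No class could be given to 357 adult nuclei (22.2%) and 4887 E14 nuclei (54.1%). Orders of classes below cover the 11 adult and 13 E14 named classes of at least 20 nuclei, and smaller or unnamed sets are given only where they are mentioned. A further 117 adult and 642 E14 nuclei carried markers of unrelated classes and were set apart as mixed. The libraries shared 1 nucleus barcode sequence. As a check of the labelled tissue, the adult library held 238 dentate granule-like, 176 CA1-like and 26 CA3-like nuclei, beside 74 thalamic-like nuclei. The E14 library held neural classes and also 146 fibroblast-like nuclei and unnamed sets led by the keratin gene Krt5 (25 nuclei) and the cartilage gene Matn1 (95 nuclei). Levels are given as CPM, which is the class total of a gene's UMIs per 1000000 UMIs of the same nuclei, with exact 95% Poisson intervals, and shares of nuclei have exact 95% binomial (Clopper-Pearson) intervals. Both cover counting error only, and where a count is 0 the limit it allows was taken as 3 counts.

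The 4 genes lie at separate places in the mouse genome (GRCm38, GENCODE vM21). Reln (ENSMUSG00000042453) spans chromosome 5 from 21884454 to 22344702 on the minus strand, with up to 65 exons in a transcript. Lrp8 (ENSMUSG00000028613) spans chromosome 4 from 107802261 to 107876840, and Dab1 (ENSMUSG00000028519) spans the same chromosome from 103619359 to 104744844, both on the plus strand. Vldlr (ENSMUSG00000024924) spans chromosome 19 from 27216484 to 27254231 on the plus strand. Because intronic reads were counted, levels of different genes were set side by side per kb of gene span. On that scale the E14 library had 2.05 CPM per kb of Lrp8, 1.15 of Dab1, 0.967 of Vldlr and 0.825 of Reln. The adult library had 2.00 CPM per kb of Dab1, 1.19 of Vldlr, 0.639 of Lrp8 and 0.0791 of Reln. Reln was thus the lowest of the 4 per kb in both libraries, while the highest was Lrp8 at E14 and Dab1 in the adult. The E14 order rests on this division. Without it the E14 levels were 1293 CPM of Dab1, 380 of Reln, 153 of Lrp8 and 36.5 of Vldlr. In the adult Dab1, at 2250 CPM, stayed highest and Reln, at 36.4 CPM, lowest.

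Reln was far higher in the E14 library than in the adult one. The libraries differ in age, brain region and make-up of classes. These cannot be told apart here or in later comparisons of the libraries. The E14 library held 22372 Reln UMIs, or 380 CPM (375 to 385), in 2942 nuclei, and the adult library held 559, or 36.4 CPM (33.5 to 39.6), in 48 nuclei. The adult UMIs were concentrated in very few nuclei. The 23 adult nuclei with at least 5 Reln UMIs held 95.3% of them.

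Cajal-Retzius-like nuclei of the E14 library had the highest Reln level of any class. These 107 nuclei were called from Trp73, Lhx1, Lhx5, Ebf2, Ebf3, Ndnf and Cacna2d2, each with at least 1 UMI of Trp73, which encodes the p73 protein and marks Cajal-Retzius cells. Of these 7 markers, 6 were detected in the class. Trp73, which the rule required, led it, and 9 of the nuclei were among those with the highest doublet scores. Reln stood at 9861 CPM (9617 to 10109), from 6207 UMIs, and 104 of the 107 nuclei (97.2%, 92.0 to 99.4) had a Reln UMI at a median depth of 4751 UMIs. A single nucleus held up to 297 Reln UMIs, and without it the level was 9572 CPM. When each nucleus was thinned to 1000 UMIs, which removes differences in depth, 87.6% of 105 nuclei (79.8 to 93.2) still had one. The Cajal-Retzius-like nuclei were 1.18% of the kept E14 nuclei and held 27.7% of all Reln UMIs of the library. Unnamed nuclei held 26.3% and mixed nuclei 17.4%.

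The other named E14 classes of at least 20 nuclei lay between 48.1 and 292 CPM of Reln. Thalamic-like nuclei had 292 CPM (277 to 308), intermediate progenitor-like nuclei 286 CPM (233 to 348), forebrain GABAergic-like nuclei 278 CPM (258 to 299), choroid plexus-like nuclei 266 CPM (236 to 297) and cortical excitatory-like nuclei 254 CPM (232 to 276). Each of these intervals overlapped that of its neighbour in the order, as did those of erythroid-like, Lhx6 interneuron-like, fibroblast-like and hypothalamic-like nuclei, down to 177 CPM. Below a gap came microglia- or macrophage-like nuclei with 100 CPM (68.3 to 143), endothelial-like nuclei with 69.0 CPM (54.7 to 85.9), or 39.9 CPM without 1 nucleus that held 34 of the 80 UMIs, and radial glia-like nuclei with 48.1 CPM (37.5 to 60.6). Single nuclei weighed on the higher levels too. Without the nucleus with the most Reln UMIs, thalamic-like nuclei were at 266 CPM, forebrain GABAergic-like nuclei at 261 CPM and choroid plexus-like nuclei at 233 CPM. Intermediate progenitor-like nuclei were then at 216 CPM. Cortical excitatory-like nuclei, where 1 nucleus held 132 of the 517 UMIs, were at 191 CPM without it.

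Microglia and macrophages are not known to make reelin, so their nuclei served as a gauge of RNA that does not belong to the nucleus. At E14, 7 of 66 (10.6%, 4.37 to 20.6) had a Reln UMI at a median depth of 3482 UMIs, and 7.58% (2.51 to 16.8) did after thinning. Of their 31 Reln UMIs, 20 lay in 1 nucleus, and without it the level was 37.5 CPM. Ttr, a transcript of the choroid plexus, had a UMI in 81.8% of the same nuclei. Thinned shares were 16.2% (13.5 to 19.2) in thalamic-like, 13.1% (10.9 to 15.5) in Lhx6 interneuron-like, 11.3% (8.42 to 14.8) in forebrain GABAergic-like and 9.90% (6.15 to 14.9) in cortical excitatory-like nuclei. These intervals all overlapped the microglial one, although the CPM intervals of these classes lay above it. With 2000 UMIs kept per nucleus, choroid plexus-like nuclei were at 31.1% (19.9 to 44.3). Thalamic-like nuclei were at 22.1% (19.0 to 25.5) and hypothalamic-like nuclei at 24.2% (18.7 to 30.4). All 3 lay above the 5.77% (1.21 to 15.9) of microglia- or macrophage-like nuclei. The intervals of Lhx6 interneuron-like, forebrain GABAergic-like and cortical excitatory-like nuclei overlapped it at 2000 UMIs too, so the share at equal depth did not tell Reln in these 3 classes from background. The thinned share of radial glia-like nuclei, 4.38% (1.62 to 9.29), was at or below the microglial one. Other non-neural classes gave a higher gauge. Erythroid-like nuclei had 215 CPM (177 to 259) and, at 2000 UMIs, 20.0% (8.44 to 36.9) of 35 nuclei, with 59 too shallow. Fibroblast-like nuclei had 212 CPM (180 to 247) and 11.6% (5.92 to 19.8). The thalamic-like and hypothalamic-like shares at 2000 UMIs overlapped both, and so did the CPM of Lhx6 interneuron-like and cortical excitatory-like nuclei. Which classes stood above background thus depended on the gauge. The CPM of these higher gauges came largely from few nuclei. Erythroid-like nuclei held 0.496% of all E14 Reln UMIs, and 2 of them, with a median depth of 123603 UMIs, alone held 0.380%. Fibroblast-like nuclei held 0.720%, and 5 of them, all among the nuclei with the highest doublet scores, alone held 0.496%.

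**Figure D1:**
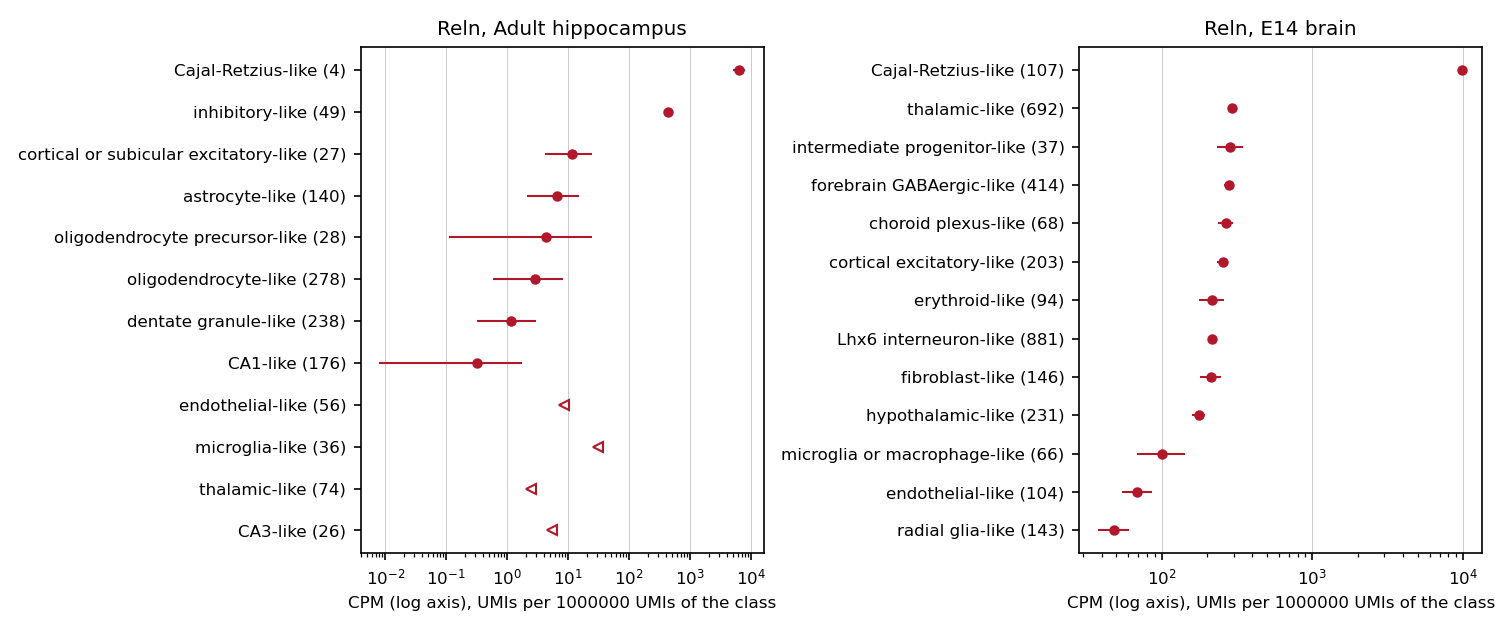
Reln level per class in the adult (left) and E14 (right) library, as CPM on a log axis. Points are levels with exact 95% Poisson intervals, open triangles mark the limit that a count of 0 allows, and numbers of nuclei stand in brackets. Cajal-Retzius-like nuclei are highest in both panels, at 6341 CPM in 4 adult nuclei and 9861 CPM in 107 E14 nuclei.

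Reln was higher in E14 nuclei with more Trp73 UMIs when nuclei of all classes were pooled. The 8690 nuclei without a Trp73 UMI had 218 CPM (214 to 222) of Reln, the 147 with 1 had 1379 CPM (1319 to 1440), the 107 with 2 to 3 had 1889 CPM (1821 to 1959), and the 92 with 4 or more had 3188 CPM (3105 to 3272). The median number of Reln UMIs per nucleus in these bins was 0, 3, 12 and 40. Depth rose too, from a median of 4141 to 9762.5 UMIs, and after thinning the share with a Reln UMI was 13.2%, 40.3%, 58.5% and 75%. Nuclei with any Trp73 UMI, 346 of 9036, held 47.2% of the Reln UMIs. Trp73 was not confined to the Cajal-Retzius-like class, since 32 of the 68 choroid plexus-like nuclei had a Trp73 UMI, and Reln in that class as a whole stood at 266 CPM.

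A set of 144 E14 nuclei was led by the same marker list but lacked a Trp73 UMI. Ebf2, Lmx1b and Ebf3 were among its leading genes, and no class name was given to it. Its Reln level was 461 CPM (419 to 506), with a UMI in 34.7% of nuclei and, after thinning, in 17.3% (11.4 to 24.6), against 87.6% in the nuclei with Trp73.

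The Gad1 and Gad2 genes, which encode the enzymes of GABA synthesis, separated Reln levels in the adult and much less at E14. Among adult nuclei without Trp73, the 1251 with no Gad UMI had 5.14 CPM of Reln (3.85 to 6.73), the 182 with 1 had 1.89 CPM (0.514 to 4.83), the 109 with 2 to 4 had 5.29 CPM (2.53 to 9.72), the 19 with 5 to 9 had 103 CPM (67.6 to 149), and the 27 with 10 or more had 622 CPM (552 to 698). The last 2 bins, 46 nuclei, held 56.9% of adult Reln UMIs. At E14 the same bins ran from 132 CPM (127 to 137) without a Gad UMI to a highest value of 292 CPM (281 to 303) with 5 to 9 UMIs. The E14 nuclei with 10 or more were at 249 CPM (240 to 258).

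**Figure D2:**
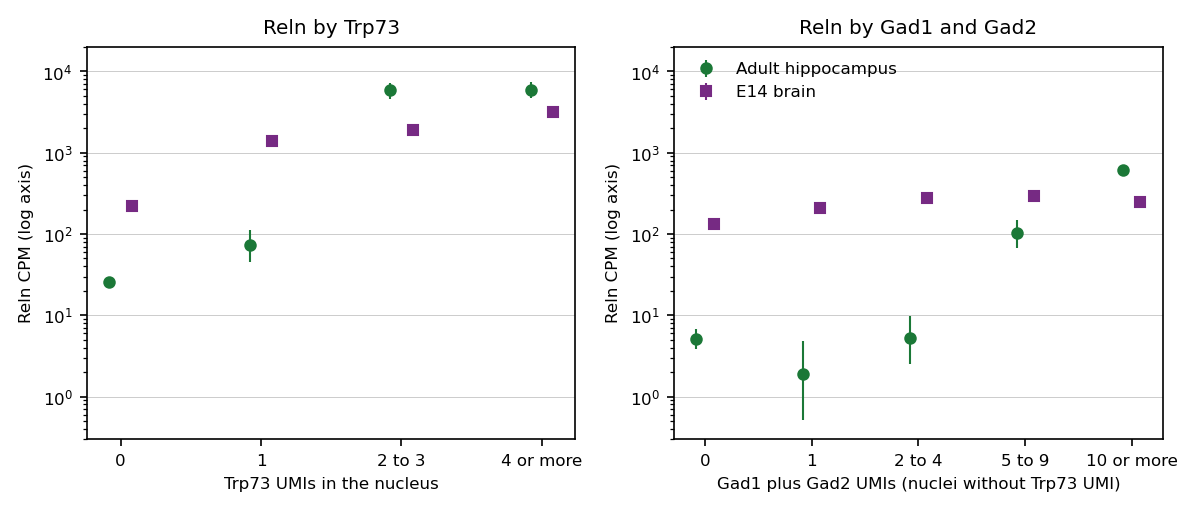
Reln CPM on a log axis in nuclei binned by Trp73 UMIs (left) and, among nuclei without Trp73, by Gad1 plus Gad2 UMIs (right), for the adult (circles) and E14 (squares) library, with exact 95% Poisson intervals. Adult levels are under 10 CPM below 5 Gad UMIs and 622 CPM at 10 or more, while E14 levels lie between 132 and 292 CPM.

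Adult inhibitory-like nuclei, called from genes of GABAergic neurons such as Gad1, Gad2, Slc32a1 and Dlx1, had 436 CPM of Reln (387 to 490). Of the 49 nuclei, 12 (24.5%, 13.3 to 38.9) had a Reln UMI at a median depth of 11822 UMIs, and 10 had at least 5. The highest nucleus had 74 of the 282 UMIs, and without it the level was 328 CPM. With 3 distinct markers required in place of 2, 31 nuclei remained and the level was 654 CPM. Adult microglia-like nuclei had 0 Reln UMIs in 36 nuclei, which allows up to 30.4 CPM and, at a median depth of 2056.5 UMIs, a share of nuclei with a UMI of up to 8.33% (the exact interval for 0 of 36 reaches 9.74%). After thinning, 15.2% (6.34 to 28.9) of 46 inhibitory-like nuclei and 0 of 35 microglia-like nuclei (0 to 10.0) had a Reln UMI, and these intervals overlapped while those of the CPM did not.

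Most Reln UMIs of inhibitory-like nuclei lay in nuclei with Ndnf or Lamp5, genes of neurogliaform and related interneurons. Nuclei were divided by whether they had a UMI of each gene, and Adarb2 and Lhx6 are themselves among the markers of the class. With an Ndnf UMI, 7 of 8 nuclei had Reln, at 2434 CPM (2135 to 2764), and without one 5 of 41 did, at 80.1 CPM (58.2 to 108). With a Lamp5 UMI the level was 1291 CPM (1128 to 1470) in 13 nuclei, and without one 117 CPM (88.0 to 152) in 36. The intervals with and without the gene did not overlap for Ndnf or for Lamp5. These divisions share nuclei, though. The nuclei with 74, 62 and 58 of the 282 Reln UMIs each had Ndnf, Lamp5 and Adarb2 UMIs, and those with 74 and 58 also had Npy. The intervals count UMIs and leave out differences between nuclei. Adarb2, a gene of interneurons from the caudal ganglionic eminence, had UMIs in 40 nuclei at 532 CPM of Reln (471 to 599), and the 9 without it had 73.8 CPM (35.4 to 136). The shares of nuclei with a Reln UMI overlapped, at 25.0% (12.7 to 41.2) with Adarb2 and 22.2% (2.81 to 60.0) without. Sst, the somatostatin gene, had UMIs in 5 nuclei, of which 2 had Reln, with 5 UMIs each and no Ndnf, Lamp5 or Adarb2 UMI. Vip had UMIs in 3 nuclei, all without Reln. The level was 608 CPM (525 to 701) with Npy and 272 CPM (218 to 334) without, while it was 81.3 CPM (49.6 to 126) with Cck and 654 CPM (577 to 738) without. Pvalb had UMIs in 4 nuclei, of which 1 had Reln. In the 6 nuclei with Lhx6, a gene of the medial ganglionic eminence lineage, 1 had Reln UMIs, and it also had 102 UMIs of Adarb2.

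At E14 the same genes divided the 881 Lhx6 interneuron-like nuclei by smaller factors, with Lhx6, Sst and Npy among the markers of that class. Reln was at 310 CPM (288 to 334) in the 160 nuclei with an Sst UMI and 179 CPM (168 to 190) in the 721 without. It was at 211 CPM (198 to 225) in the 345 nuclei with an Lhx6 UMI and 221 CPM (205 to 236) in the 536 without, and these intervals overlapped. Of the 8 markers of this class, 5 were detected in it. With Lamp5 it was at 303 CPM (265 to 345) in 42 nuclei, against 206 CPM (196 to 217).

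Adult Cajal-Retzius-like nuclei were 4, with 33, 15, 13 and 12 Reln UMIs, or 6341 CPM together (4970 to 7973). Their 11512 UMIs held none of Lrp8, Vldlr or Dab1, which allows up to 261 CPM of each. Judged by Trp73 alone, 6 adult nuclei had at least 2 Trp73 UMIs, all 6 had between 12 and 46 Reln UMIs, and together they held 27.5% of the adult Reln UMIs at 5888 CPM (4995 to 6895). Those with 46 and 35 Reln UMIs were mixed nuclei, and mixed nuclei as a whole held 24.9% of the adult Reln UMIs. The 10 inhibitory-like nuclei with 5 or more Reln UMIs lacked Trp73, but so did all 49 of their class and 1588 of the 1609 adult nuclei. A single nucleus without Trp73 had 34 Reln UMIs in 2078 UMIs in all, with 12 of Ndnf and 0 of Gad1 and Gad2.

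Adult principal neurons had almost no Reln. CA1-like nuclei had 1 UMI in 176 nuclei, 0.314 CPM (0.00796 to 1.75), and dentate granule-like nuclei had 4 in 238, 1.15 CPM (0.313 to 2.95). CA3-like and thalamic-like nuclei had 0, which allows up to 5.34 and 2.48 CPM. Cortical or subicular excitatory-like nuclei had 11.4 CPM (4.2 to 24.9), but 5 of their 6 UMIs lay in 1 nucleus, and without it the level was 2.02 CPM. Thalamic-like nuclei thus had 0 Reln UMIs in 74 adult nuclei and 1400 in 692 E14 nuclei, though the classes are not alike. At E14, 4 of the 7 markers were detected, against 7 in the adult, and 35 of the 39 E14 thalamic-like nuclei with 10 or more Reln UMIs had at least 2 Gad1 and Gad2 UMIs, as did 300 of all 463 E14 nuclei with 10 or more Reln UMIs. The 39 nuclei had a median depth of 8499 UMIs, against 5222 in their class, and the 463 had one of 9143 UMIs. Of the 8690 E14 nuclei without Trp73, 1530 had 2 to 4 Gad UMIs and 1771 had 5 or more. Their median depths were 4670 and 7757 UMIs. The share of all thalamic-like nuclei with Gad UMIs is not given here.

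Lrp8 was the receptor with the larger change in level between the libraries. It stood at 153 CPM (150 to 156) at E14, in 43.4% of nuclei, and at 47.6 CPM (44.2 to 51.2) in the adult, in 28.0%. Vldlr stood at 36.5 CPM (35.0 to 38.1) at E14 and 44.9 CPM (41.6 to 48.4) in the adult, and these intervals did not overlap either.

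Endothelial-like nuclei, marked by Flt1, Cldn5 and Pecam1, had the highest Lrp8 level among classes of at least 20 nuclei in both libraries. At E14 it was 511 CPM (471 to 554), from 593 UMIs in 104 nuclei, and 82.7% of nuclei (74.0 to 89.4) had a UMI at a median depth of 6675.5 UMIs. After thinning the share was 45.9% (35.8 to 56.3), against 7.58% (2.51 to 16.8) in microglia- or macrophage-like nuclei. In the adult it was 111 CPM (79.2 to 152) in 56 nuclei, and 42.9% had a UMI, or 7.84% (2.18 to 18.9) after thinning, which overlapped 0 of 35 microglia-like nuclei (0 to 10.0). The adult interval overlapped that of the next class, CA3-like nuclei with 85.5 CPM (63.0 to 113), and the E14 one overlapped none.

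Intermediate progenitor-like nuclei, the Eomes- and Neurog2-positive dividing precursors of cortical neurons, came next at E14 with 332 CPM of Lrp8 (274 to 398) in 37 nuclei. Their thinned share was 33.3% (18.6 to 51.0). Erythroid-like nuclei were at 196 CPM (160 to 238), with 38 of their 101 UMIs in 1 nucleus and a median depth of 1063.5 UMIs. Without that nucleus their level was 205 CPM. Cortical excitatory-like nuclei, which express Neurod6 and Tbr1, were at 192 CPM (174 to 212), with a UMI in 62.6% and, after thinning, in 17.8% (12.8 to 23.8). Radial glia-like nuclei, the precursors along the ventricle, were at 132 CPM (114 to 152), so their interval lay below that of the intermediate progenitor-like nuclei. From forebrain GABAergic-like nuclei at 158 CPM to Lhx6 interneuron-like nuclei at 130 CPM (122 to 138), each interval overlapped the next. Choroid plexus-like nuclei at 93.5 CPM (76.6 to 113), fibroblast-like nuclei and microglia- or macrophage-like nuclei at 61.6 CPM (37.1 to 96.2) lay below that run. Cajal-Retzius-like nuclei were within it at 145 CPM (116 to 178), and their thinned share was 9.52% (4.66 to 16.8). At 1000 UMIs the shares of all the neuronal classes and of radial glia-like nuclei overlapped the microglial one. With 2000 UMIs kept per nucleus, those of cortical excitatory-like (30.0%, 23.7 to 36.9), forebrain GABAergic-like (26.4%, 21.9 to 31.4), Lhx6 interneuron-like (24.3%, 21.3 to 27.5) and hypothalamic-like nuclei (26.5%, 20.8 to 32.8) lay above the microglial 7.69% (2.14 to 18.5). Those of Cajal-Retzius-like, thalamic-like and radial glia-like nuclei still overlapped it, and those of endothelial-like and intermediate progenitor-like nuclei lay above it at both depths. Erythroid-like nuclei, at 37.1% (21.5 to 55.1), also lay above it at 2000 UMIs, and their interval overlapped those of the neuronal classes above it. That share covers only the 35 deeper nuclei, since 59 of the 94 erythroid-like nuclei were too shallow. With that limit, the neuronal shares above the microglial one were not above those of every non-neural class.

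Among adult neurons Lrp8 was lowest in CA1-like and highest in CA3-like nuclei, whose interval of 63.0 to 113 CPM lay above that of CA1-like nuclei. In the 26 CA3-like nuclei 1 held 7 of the 48 UMIs, and without it the level was 75.1 CPM. After thinning 0 of the 26 (0 to 13.2) had an Lrp8 UMI, so the share did not show the order that the CPM gave. Inhibitory-like nuclei had 55.7 CPM (39.0 to 77.0), dentate granule-like nuclei 51.5 CPM (44.2 to 59.6), thalamic-like nuclei 51.2 CPM (39.2 to 65.6) and CA1-like nuclei 31.4 CPM (25.6 to 38.2). The CA1 interval lay below the dentate granule one. After thinning 4.62% (2.33 to 8.12) of dentate granule-like nuclei had an Lrp8 UMI, a share whose interval overlaps that of the microglia-like nuclei. Oligodendrocyte-like nuclei were at 14.9 CPM (8.54 to 24.3), or 9.81 CPM without 1 nucleus that held 6 of the 16 UMIs, and microglia-like nuclei had 0 UMIs, which allows up to 30.4 CPM.

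Vldlr was highest in adult oligodendrocyte-like nuclei, which express the myelin genes Mbp, Mog and Mag. They had 129 CPM (108 to 152), from 138 UMIs in 278 nuclei, with no overlapping interval among the adult classes of at least 20 nuclei. A UMI was present in 32.4% (26.9 to 38.2) at a median depth of only 2881 UMIs, and after thinning in 13.3% (9.41 to 18.1). The corresponding shares in microglia-like nuclei were 5.56% (0.680 to 18.7) at 2056.5 UMIs and 0 of 35 (0 to 10.0) after thinning, so the thinned intervals overlapped slightly while the CPM intervals did not. Oligodendrocyte precursor-like nuclei, marked by Pdgfra and Vcan, had 30.7 CPM (12.3 to 63.2). CA1-like nuclei had 47.2 CPM (39.9 to 55.3), dentate granule-like nuclei 43.4 CPM (36.8 to 50.9), astrocyte-like nuclei 19.5 CPM (10.9 to 32.2), and endothelial-like nuclei 1 UMI, or 2.86 CPM (0.0723 to 15.9).

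At E14 Vldlr was highest in choroid plexus-like nuclei, at 67.9 CPM (53.6 to 84.9). Forebrain GABAergic-like nuclei had 48.5 CPM (40.3 to 57.8), Lhx6 interneuron-like nuclei 39.0 CPM (34.8 to 43.5) and cortical excitatory-like nuclei 22.1 CPM (16.1 to 29.5). Each interval in the order overlapped the next. The cortical excitatory-like interval, though, lay below those of forebrain GABAergic-like and Lhx6 interneuron-like nuclei. After thinning, cortical excitatory-like nuclei had a Vldlr UMI in 1.98% (0.542 to 4.99) and microglia- or macrophage-like nuclei in 1.52% (0.0384 to 8.16), so Vldlr in the cortical class could not be told from background at this depth. The shares of choroid plexus-like (7.81%, 2.59 to 17.3), forebrain GABAergic-like (3.94%, 2.27 to 6.32) and Lhx6 interneuron-like nuclei (4.17%, 2.94 to 5.73) overlapped the microglial one too. The microglial level was 19.5 CPM (7.14 to 42.3), and of these classes only the choroid plexus-like interval lay above it. Radial glia-like nuclei had 13.5 CPM (8.27 to 20.9) and endothelial-like nuclei 9.49 CPM (4.74 to 17.0).

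**Figure D3:**
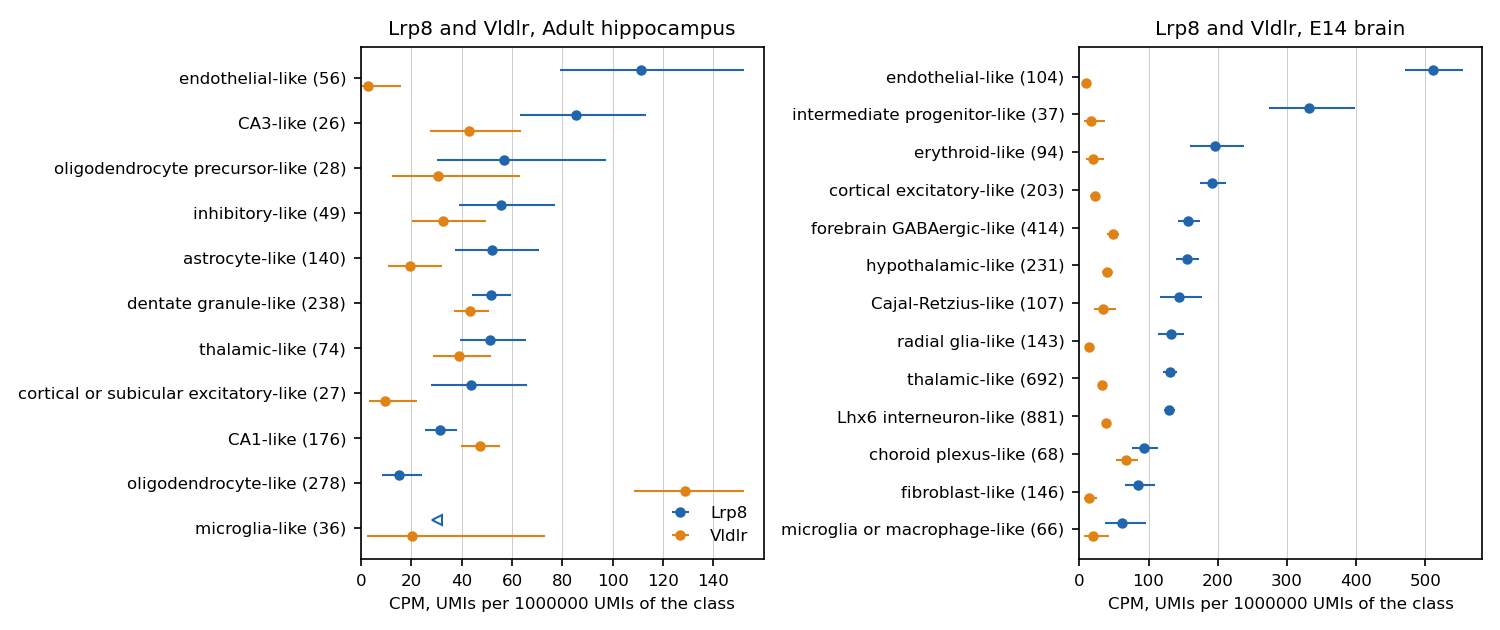
Lrp8 and Vldlr levels per class in the adult (left) and E14 (right) library, as CPM with exact 95% Poisson intervals, and with the number of nuclei in brackets. The open triangle marks the limit that a count of 0 allows. Among these classes of at least 20 nuclei, Lrp8 is highest in endothelial-like nuclei, at 111 and 511 CPM, and Vldlr in adult oligodendrocyte-like nuclei, at 129 CPM.

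The share of Vldlr among the UMIs of both receptors was compared between classes, and it ran in opposite directions in endothelial-like and oligodendrocyte-like nuclei. It was 1.82% (0.913 to 3.24) of 604 receptor UMIs in E14 endothelial-like nuclei and 2.50% (0.0633 to 13.2) of 40 in the adult ones. It was 89.6% (83.7 to 93.9) of 154 in adult oligodendrocyte-like nuclei. Among adult neurons it was 60.0% (53.6 to 66.1) in CA1-like, 45.8% (40.3 to 51.3) in dentate granule-like and 33.3% (22.7 to 45.4) in CA3-like nuclei. At E14 it was 10.3% (7.61 to 13.5) in cortical excitatory-like, 9.30% (5.78 to 14) in radial glia-like and 4.92% (1.83 to 10.4) in intermediate progenitor-like nuclei. It was higher, 23.1% (20.9 to 25.4), in Lhx6 interneuron-like and 23.5% (19.9 to 27.4) in forebrain GABAergic-like nuclei. Both intervals lay above those of cortical excitatory-like, radial glia-like and intermediate progenitor-like nuclei. Choroid plexus-like nuclei had the highest share of the named E14 classes, 42.1% (34.8 to 49.6). Vldlr is a shorter gene than Lrp8, and these shares are not corrected for length, so they compare classes and not the receptors.

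**Figure D4:**
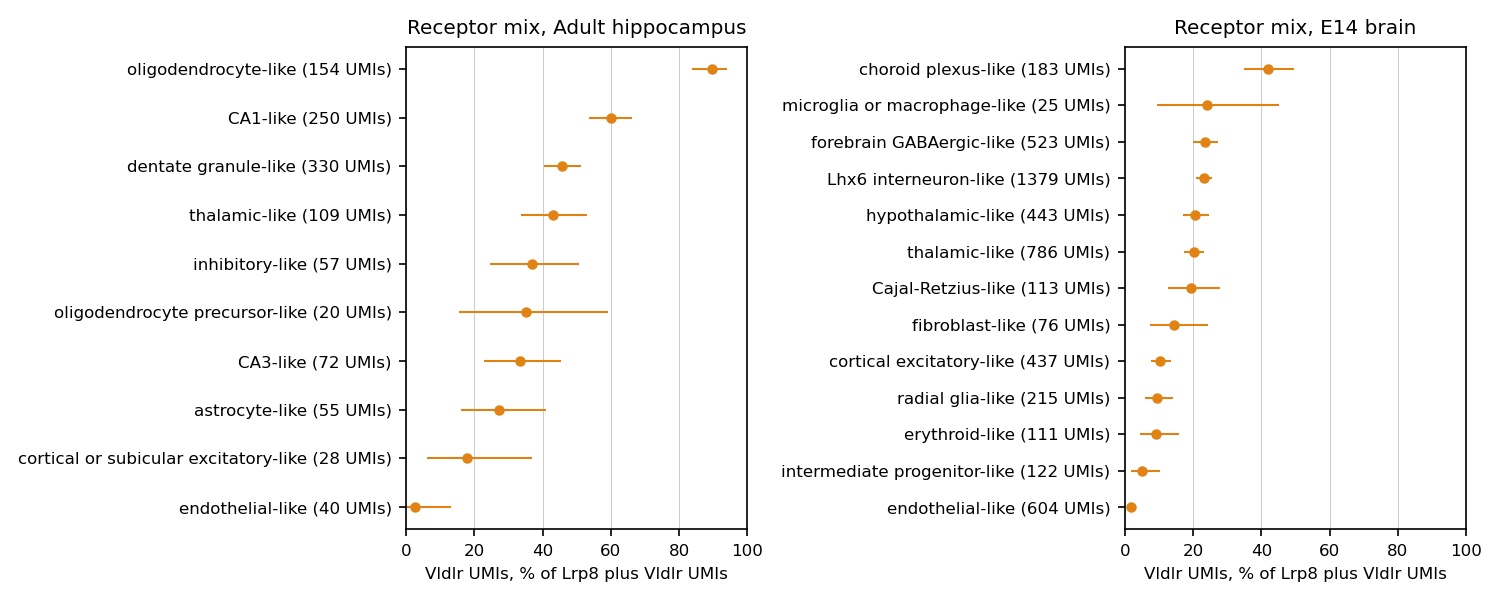
Vldlr UMIs as a percentage of Lrp8 plus Vldlr UMIs per class with at least 20 receptor UMIs, adult (left) and E14 (right), with exact 95% binomial intervals and the number of receptor UMIs in brackets. Adult oligodendrocyte-like nuclei lie at 89.6% and endothelial-like nuclei at 2.50% and 1.82%.

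Dab1, the intracellular adaptor, had a UMI in most nuclei of both libraries. It stood at 2250 CPM (2227 to 2274) in the adult, in 58.2% of nuclei, and at 1293 CPM (1284 to 1302) at E14, in 63.6%. The gene spans 1125 kb, and the counts do not separate intronic from exonic reads.

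Adult dentate granule-like nuclei, called from Prox1, C1ql2 and other granule cell genes, had the highest Dab1 level among classes of at least 20 nuclei, 3604 CPM (3542 to 3668), with a UMI in 237 of 238 nuclei. After thinning 95% (91.4 to 97.4) had one. CA1-like nuclei followed with 2962 CPM (2903 to 3023) and 86.3% (80.2 to 91.1) after thinning, and inhibitory-like nuclei with 2497 CPM (2376 to 2621) and 78.3% (63.6 to 89.1). CA3-like nuclei were far lower, at 463 CPM (409 to 523) and 23.1% (8.97 to 43.6), and so were thalamic-like nuclei, at 253 CPM (225 to 282) and 12.9% (6.05 to 23.0). In the thalamic-like class 1 nucleus held 117 of 306 Dab1 UMIs, and without it the level was 165 CPM. Among glia, oligodendrocyte precursor-like nuclei had 1436 CPM (1285 to 1600), astrocyte-like nuclei 1080 CPM (1008 to 1156) and oligodendrocyte-like nuclei 353 CPM (318 to 390). Endothelial-like nuclei had 8 UMIs, 22.9 CPM (9.87 to 45.0), of which 6 lay in 1 nucleus, and without it 6.40 CPM. The microglia-like level of 658 CPM came from 2 of 36 nuclei, of which 1 held 38 of the 65 UMIs, and without that nucleus it was 332 CPM. Their share after thinning, 5.71% (0.700 to 19.2), rested on the same 2 nuclei, and its interval overlapped those of CA3-like, thalamic-like and oligodendrocyte-like nuclei. Endothelial-like nuclei had 0 of 51 after thinning (0 to 6.98), and only the thalamic-like interval of these 3 overlapped theirs.

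The order of classes differed at E14. Thalamic-like nuclei, called from Tcf7l2 and Ntng1 among others, had the highest Dab1 level of the named classes, 2555 CPM (2510 to 2600.5), and 79.2% (76.0 to 82.2) had a UMI after thinning. Cortical excitatory-like nuclei followed with 1396 CPM (1345 to 1448) and 51.0% (43.9 to 58.1), Lhx6 interneuron-like nuclei with 1119 CPM (1096 to 1142) and 39.3% (36.0 to 42.6), and hypothalamic-like nuclei with 936 CPM (897 to 977). No interval among these 4 overlapped the next. Radial glia-like nuclei had 773 CPM (728 to 819), but a UMI in 57.7% of nuclei (48.9 to 66.1) after thinning, a share that overlapped that of cortical excitatory-like nuclei. Intermediate progenitor-like nuclei had 403 CPM (339 to 476) and 27.8% (14.2 to 45.2), a level below that of microglia- or macrophage-like nuclei and a share that overlapped theirs, so Dab1 in this class could not be told from background at equal depth.

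Dab1 in E14 Cajal-Retzius-like nuclei was at 559 CPM (502 to 621), below the 694 CPM (604 to 793) of microglia- or macrophage-like nuclei. Their thinned shares were 30.5% (21.9 to 40.2) and 18.2% (9.76 to 29.6), with overlapping intervals. Dab1 in the Cajal-Retzius-like class could therefore not be told from background at equal depth. In E14 endothelial-like nuclei Dab1 was at 436 CPM (399 to 476), and their high Lrp8 level was accompanied by a thinned Dab1 share of 21.4% (13.8 to 30.9), also within the microglial interval.

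**Figure D5:**
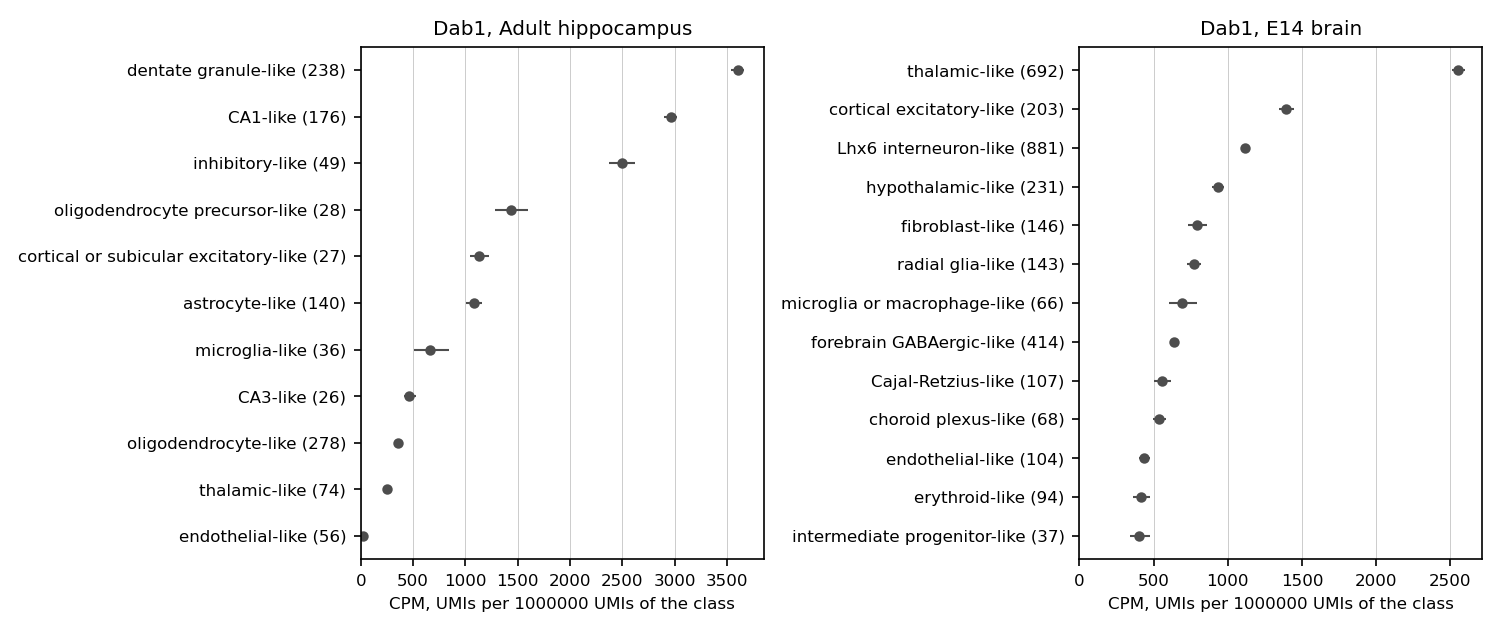
Dab1 level per class in the adult (left) and E14 (right) library, as CPM with exact 95% Poisson intervals and the number of nuclei in brackets. Among the named classes of at least 20 nuclei, dentate granule-like nuclei lead in the adult at 3604 CPM and thalamic-like nuclei at E14 at 2555 CPM, while adult thalamic-like nuclei are at 253 CPM.

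The Reln-rich interneurons of the adult also carried Dab1. In the 10 inhibitory-like nuclei with 5 or more Reln UMIs, Dab1 was at 3180 CPM (2894 to 3487) and 8 of them had a UMI. In the 37 without Reln it was at 2228 CPM (2097 to 2364), with a UMI in 34. The 2 Reln-rich nuclei without Dab1 were those with Sst. Lrp8 was at 35.2 CPM (11.4 to 82.1) and 63.4 CPM (43.1 to 90.0) in these sets, and Vldlr at 14.1 CPM (1.70 to 50.8) and 36.8 CPM (21.8 to 58.2), with overlapping intervals. With 3 distinct markers required for the class, its Dab1 level was 1800 CPM in place of 2497 CPM.

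The other genes of the pathway were counted in a list of 50, ordered by role, as higher or lower where the CPM of a class and of all other kept nuclei of its library differed at least 2-fold. In E14 Cajal-Retzius-like nuclei 1 of 50 was higher and 8 were lower, where 8.35% and 33.6% of all 21831 genes tested were, and the median fold was 0.894 over the list and 0.813 over all genes. Among its 5 largest folds, Thbs1 and Adamts4 had 0 UMIs with both levels under what 3 counts give, so their count as lower rests on no measurable fold. Adamts3, a protease that cuts and inactivates reelin, had 2 UMIs and a ratio of 0.119 (0.0144 to 0.431). The ratio of Adamts2, a related protease, rested on 1 UMI and was 0.203 (0.00513 to 1.13). Apoe, a lipoprotein that binds the same receptors, had 9 UMIs and a ratio of 0.232 (0.106 to 0.440).

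In E14 cortical excitatory-like nuclei 3 of 50 genes were higher and 5 lower, beside 5.37% and 27.1% of all genes, with medians of 0.967 and 0.846. Adamts3 was the largest of them, at 133 CPM from 272 UMIs against 22.6 CPM elsewhere, a ratio of 5.91 (5.23 to 6.66). Efnb2, a B-type ephrin of the kind that binds reelin as a co-receptor, was at 210 CPM against 84.9 CPM, a ratio of 2.47 (2.24 to 2.72). Apoe was at 14.2 CPM against 62.9 CPM, a ratio of 0.226 (0.152 to 0.325). Thbs1, with 4 UMIs, had a ratio of 0.429 (0.117 to 1.10).

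In E14 endothelial-like nuclei, the class with the most Lrp8, 8 of 50 genes were higher and 7 lower, beside 16.8% and 27.7% of all genes, with medians of 1.24 and 0.977. Apoe was at 250 CPM against 57.4 CPM, a ratio of 4.36 (3.87 to 4.89). Yes1, a Src family kinase, was at 210 CPM against 60.0 CPM, a ratio of 3.50 (3.07 to 3.96). Itgb1, an integrin subunit that can bind reelin, was at 618 CPM against 181 CPM, a ratio of 3.41 (3.17 to 3.67). Adamts4 had 5 UMIs and a ratio of 4.15 (1.35 to 9.69). Dcx, a microtubule protein of migrating neurons, was at 97.5 CPM against 316 CPM, a ratio of 0.309 (0.255 to 0.371).

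In the adult library 47 of the 50 genes had at least 10 UMIs. In inhibitory-like nuclei 2 were higher and 7 lower, beside 8.4% and 22.9% of all 17926 genes tested, with medians of 0.806 and 0.901. Genes with 0 UMIs in the class were counted as lower, and for Adamts4 the limit of 3 counts does not carry a 2-fold difference. Dcx was at 86.6 CPM against 18.2 CPM, a ratio of 4.75 (3.59 to 6.17), and Limk1, a kinase of cofilin, was at 29.4 CPM against 7.82 CPM, a ratio of 3.75 (2.26 to 5.86). Apoe was at 172 CPM against 650 CPM, a ratio of 0.264 (0.217 to 0.318). Adamts2 had 0 UMIs, at least 3.12-fold lower than the 14.5 CPM elsewhere, and Adamts4 had 0 UMIs, at least 1.38-fold lower than 6.39 CPM. In dentate granule-like nuclei 1 was higher and 13 were lower, beside 4.93% and 23.8%, with medians of 0.737 and 0.871. Adamts3 was the 1 higher gene, at 96.1 CPM against 44.4 CPM, a ratio of 2.16 (1.94 to 2.41). Among the 5 largest folds, all lower, Apoe was at 54.9 CPM against 798 CPM, and Limk1 had 6 UMIs and a ratio of 0.160 (0.0587 to 0.348). Itga3, an integrin subunit, had 3 UMIs and a ratio of 0.109 (0.0225 to 0.318), Adamts4 1 UMI and 0.0367 (0.000929 to 0.205), and Adamts2 1 UMI and 0.0161 (0.000408 to 0.0897).

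Across the 24 named classes with at least 20 nuclei, the 4 genes did not follow each other closely. The Pearson correlation of log2(CPM + 1) was 0.563 for Reln with Lrp8, 0.427 for Vldlr with Dab1, 0.189 for Reln with Dab1 and 0.0553 for Reln with Vldlr. It was -0.208 for Lrp8 with Vldlr and -0.110 for Lrp8 with Dab1. Among 11578 genes outside the marker lists with at least 100 UMIs in each library, those most like Lrp8 were Spaca6 (0.906), Armcx4 (0.905), Zfp282 (0.903), Gfod2 (0.903) and Gm15558 (0.900). Those most like Dab1 were 3200001D21Rik (0.856), Add2 (0.830), Celf2 (0.830), Htr4 (0.820) and Erc2 (0.813), and those most like Vldlr were Magi2 (0.834), Gm35438 (0.782), A230056P14Rik (0.771), Adam22 (0.731) and Tecpr2 (0.720). For Reln they were 4930579G18Rik (0.870), Gm2516 (0.867), Gm27241 (0.862), Blcap (0.856) and Gm30054 (0.855). The 24 points share 2 libraries and their depths, so these values mix differences between tissues and between classes.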

How the data were processed

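Slide-tags snRNA-seq was analysed for 1 library of adult mouse hippocampus and 1 of E14 mouse brain. For both libraries the authors mapped reads against mm10, introns included, and the deposited values are whole UMI counts without normalization, as Cell Ranger wrote them (file headers 6.1.2 for the adult and 7.0.1 for E14). The methods also name CellBender for the embryo, and the deposited matrix carries a Cell Ranger header and whole counts. Spatial positions were not analysed here, and 0 columns belonged to other samples.

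A barcode passed with 500 or more UMIs and a mitochondrial share below 5%, which left 1609 of 1661 and 9036 of 9037, including nuclei that the study did not place in space. A nucleus was given the class whose marker UMIs most exceeded those its depth and the share in nuclei outside the class gave (Poisson deviance of at least 3 powers of 10, a lead of 1 and 2 distinct markers). A nucleus whose other, unrelated list reached 20% of that score was called mixed, and Cajal-Retzius-like nuclei also needed a Trp73 UMI. Scoring, thresholds and bins were set after the data had been seen. At E14, the nuclei of 4 lists (midbrain or hindbrain, cerebellar, striatal, ventral progenitor) whose leading genes went against the name, such as the keratin Krt5 or the cartilage gene Matn1, stayed unnamed. The members and lists were chosen with earlier results of these data known. Named genes are the 4 members, class markers, Trp73, Gad1, Gad2 and 9 interneuron genes, the 5 largest folds of the pathway list per class (some of which are not reported here), the 5 genes most correlated with each member, and Ttr.

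Scrublet in scanpy 1.11.5 marked 6 adult and 4 E14 nuclei with its automatic threshold, which was judged not to have worked. The 21 and 653 nuclei of highest score were marked in its place, at 0.8% per 1000 nuclei, and kept in the main values, 9 of them among the 107 Cajal-Retzius-like E14 nuclei. Thinning drew 1000 UMIs per nucleus without replacement and left out shallower nuclei. Fold and class scripts were tested on simulated data. Python 3.11.15 and SciPy 1.17.1 were used, and gene positions are from GENCODE vM21.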

Additional observations from a re-analysis of the deposited data

Results flagged for a closer look

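The 52 adult barcodes left out for 5% or more mitochondrial UMIs held 4 UMIs of Reln, 8 of Lrp8 and 17 of Dab1, each above the 3 that a count of 0 allows, in data no comparison used. Vldlr had 2 there.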

How the results depend on the processing

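No paired analysis was possible because each tissue has 1 library. Of 60 alternative values of the 6 main levels, 42 stayed within the main 95% interval and 18 moved out of it. Reln in E14 Cajal-Retzius-like nuclei moved from 9861 CPM to 9372 with 3 distinct markers, 10776 without nuclei of the highest Scrublet scores, 7139 with Leiden clusters computed without the 4 genes, and 10403 as the mean of each nucleus. Reln in adult inhibitory-like nuclei moved from 436 CPM to 654 with 3 markers and 576 with clusters, and Dab1 there from 2497 to 1800 and 1846. In E14 cortical excitatory-like nuclei clusters moved Vldlr from 22.1 to 32.7 CPM and Dab1 from 1396 to 1567, with 580 nuclei in place of 203, and Dab1 was 1344 without nuclei of the highest Scrublet scores and 1312 as the mean of each nucleus. Lrp8 there stayed within its interval under each alternative. Alternatives chosen after seeing the data moved the E14 Reln level to 9572 without its highest nucleus and 9289 with mixed nuclei kept, adult Reln to 328 and adult Dab1 to 2370 without their highest nuclei, and E14 cortical Dab1 to 1449 with mixed nuclei kept and 1476 without nuclei over 20000 UMIs. The causes were not tested. Thinning to 2000 UMIs moved 61 of 128 shares out of their intervals, 60 of them upward, so the shares depend on the depth kept. Counting intervals leave out differences between animals.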
